A study of Rattus norvegicus with 4 samples.

Results

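Acute phase and complement genes were followed in RNA-Seq libraries of a pair of PC12 clones, a neural line from a rat pheochromocytoma. The set named 9 genes: A2m, Orm1, Hp and Lcn2 of the acute phase, and Masp1, C1r, C1s, C3 and Serping1 of the complement system. Of these, 8 had a row among the 25810 genes of the count files, and C3 was not analysed here. A2m, Orm1 and Masp1 were chosen by their high counts in hrPC12, so their levels are described with no test, while the other members were listed for their function. The low-REST clone is wtPC12 and the high-REST clone is hrPC12, earlier named PC12-27, in which REST rose spontaneously, and each was sequenced in 2 libraries. No treatment is given for either. With 1 clone per REST level, effects of REST cannot be told apart from other ways in which the clones differ. The labels do not say whether the 2 libraries of a clone came from separate cultures, so p values measure the spread between libraries, which may be technical.

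Acute phase proteins are plasma proteins, made mostly by the liver, whose output changes in inflammation under cytokines of the IL-6 and IL-1 families and glucocorticoids. The cytokines act through STAT3, C/EBP and NF-κB factors, and glucocorticoids through the glucocorticoid receptor. In the rat, A2m is the classical strongly induced member. The complement system is a cascade of proteases. C1r and C1s are the proteases of the classical pathway and Masp1 is one of the lectin pathway, and the cascades converge on cleavage of C3. Serping1, the C1 inhibitor, blocks C1r, C1s and the lectin pathway proteases. Many of these proteins are also made outside the liver, including by fibroblasts and macrophages.

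Reads on genes numbered 20975027 and 21999191 in the wtPC12 libraries and 27246502 and 21634943 in those of hrPC12. Normalized counts are reads scaled by edgeR's TMM factors to a common depth, and 3 reads correspond to 2.54 to 3.49 of them. Rest had 43.0 and 132 normalized counts in the wtPC12 libraries and 964 and 915 in those of hrPC12, with a log2 fold change (log2 FC, hrPC12 over wtPC12) of 3.42, its standard error (SE) being 0.57, and an edgeR adjusted p of 0.0115 by the quasi-likelihood test. A gene was called when its adjusted p (Benjamini-Hochberg over all 13726 tested genes) was under 0.01 and its log2 FC was past 2 in either direction. Of all tested genes 4.84% were called higher and 5.46% lower in hrPC12, and in 73.5% the libraries of the clones did not overlap. To be tested, a gene needed reads in each clone and a mean over all libraries of 5 normalized counts or more. Of the 8 members, 6 were tested, and 3 of these, C1r, C1s and Hp, had not been chosen for their counts. With such a filter, members that passed it are not a sample of all members.

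Promoter sequences from RefSeq (assembly GRCr8, which is not the build of the counts) were found for Orm1, Masp1, C1r, Lcn2 and C3, 5 of the 9 members. The bases before the start site are shown for Orm1 and C1r, which were higher in hrPC12, and the first 100 of the 250 bases for Lcn2, which was lower. They are written 5′ to 3′ on the strand of the gene and lie at chr5:81788259-81788508 (plus strand), chr4:159098763-159099012 (plus strand) and chr3:36081931-36082030 (minus strand). Capitals mark matches to the motifs named below.
Orm1: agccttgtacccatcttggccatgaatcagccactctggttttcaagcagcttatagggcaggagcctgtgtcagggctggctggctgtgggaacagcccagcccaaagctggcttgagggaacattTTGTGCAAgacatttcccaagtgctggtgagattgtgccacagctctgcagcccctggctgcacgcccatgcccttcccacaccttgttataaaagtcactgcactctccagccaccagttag
C1r: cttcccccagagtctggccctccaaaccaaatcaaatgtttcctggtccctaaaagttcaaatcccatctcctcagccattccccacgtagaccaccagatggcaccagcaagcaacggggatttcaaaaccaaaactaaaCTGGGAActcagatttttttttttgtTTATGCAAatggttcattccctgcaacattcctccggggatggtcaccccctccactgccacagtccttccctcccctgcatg
Lcn2: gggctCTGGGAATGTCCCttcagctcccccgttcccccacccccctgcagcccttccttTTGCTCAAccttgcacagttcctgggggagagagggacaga

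Motifs were searched on both strands from 250 bases before to 50 bases after the start site. The C/EBP letters TTGCNNAA were found in 4 of the 5 member promoters, Orm1, Lcn2, C1r and C3, and in 10.6% of all 33469 promoters of this length. In Orm1 the match lies at −123 to −116, in C1r at −83 to −76 and in Lcn2 at −191 to −184. The IL-6 type 2 letters CTGGGAA were found in Lcn2, C1r and C3 and in 11.3% of all promoters. The NF-κB consensus was matched in Lcn2 alone among the 5, at −242 to −233, and in 7.51% of all promoters. In Lcn2 it is matched on the opposite strand and overlaps the CTGGGAA of that promoter. The STAT letters TTCNNNGAA, the interferon element letters GAAANNGAA and the left part of the REST element, CAGCACC, were in none of the 5 and in 8.87%, 9.71% and 6.78% of all promoters. Masp1 held none of the 6 motifs in this window. Promoters that carry the C/EBP letters thus belonged to members higher and lower in hrPC12.

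Orm1, which codes for orosomucoid or alpha-1-acid glycoprotein, a plasma carrier, took the most reads of the set. Reads of Orm1 numbered 65 and 57 in the wtPC12 libraries (replicate 1 first here and throughout) against 53436 and 50827 in hrPC12. As normalized counts these are 67.2 ± 11.9 and 48332 ± 4379 (SD, n = 2 each), which gives a log2 FC of 9.49 (SE 0.31), or 720-fold. Orm1 alone accounted for 0.196% and 0.235% of all reads on genes in the hrPC12 libraries, and for 0.00031% and 0.000259% in those of wtPC12. The wtPC12 counts were low but present in both libraries, above the floor of 3 reads. In bulk libraries such as these, a change in the share of cells that express a gene and a change of its RNA per cell cannot be told apart.

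A2m codes for alpha-2-macroglobulin, which traps proteases of many classes. It had 0 and 1 read in the wtPC12 libraries and 1090 and 1011 in those of hrPC12. In normalized counts hrPC12 held 973 ± 70.9 (SD, n = 2). The single wtPC12 read leaves the ratio poorly bounded: the summed reads, corrected for depth, gave 1773-fold, with an exact 95% counting interval from 318 to 70047. Such intervals cover counting error only. A2m has close relatives beside it in the genome, Mug1 and Mug2, whose reads could be mistaken for its own. Mug1 and Mug2 had at most 3 reads in any library. Any of their reads placed on A2m would be counted as A2m, so such a mix-up was not tested. Among genes with a proper symbol, those with levels most like A2m over the 4 libraries were Glb1l2, Akap6 and Aff3. Their Euclidean distances of log2(normalized count + 1) were 0.53, 0.67 and 0.72. Each held 0 and 1.03 normalized counts in the wtPC12 libraries, as A2m did, so this ranking depends on where single reads fell.

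Masp1, the lectin pathway protease, had 11 and 15 reads in wtPC12 and 14373 and 10492 in hrPC12. The normalized counts were 14.1 ± 1.88 and 11392 ± 1097 (SD, n = 2), and the log2 FC was 9.64 (SE 0.27), or 797-fold. Both hrPC12 libraries lay far above both of wtPC12, and hrPC12 replicate 1 was 1.15 times replicate 2. The counts are per gene, so the protease products of this locus, which include the splice form MASP-3, were not separated.

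C1r and C1s, the proteases that C1q activates, were both called higher in hrPC12. C1r had 118 and 126 reads in wtPC12 and 2453 and 2200 in hrPC12, or 134 ± 5.28 and 2151 ± 106 normalized counts (SD, n = 2 each). The log2 FC of C1r was 4.01 (SE 0.22, edgeR adjusted p = 0.00053), a 16.1-fold rise. C1s had 5 and 3 reads in wtPC12 and 151 and 117 in hrPC12. Its normalized counts were 4.45 ± 1.93 and 123 ± 6.68 (SD, n = 2 each), a log2 FC of 4.77 (SE 0.48, edgeR adjusted p = 0.0026), or 27.2-fold. With a wtPC12 mean under 5, C1s passed the filter only through hrPC12, so its call is not free of that selection. C1r was above 5 in each clone. For both genes all hrPC12 libraries lay above those of wtPC12. Without wtPC12 replicate 2 the log2 FC of C1r was 3.97 and that of C1s 4.38, and edgeR's adjusted p was 0.0139 and 0.0222, so both calls were lost. In that fit no gene at all was called, although 6798 of 13590 had an unadjusted p under 0.05.

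Serping1, the inhibitor of both proteases, stayed near the floor. It had 1 and 0 reads in wtPC12 and 6 and 7 in hrPC12, and was too low to be tested. The ratio of the summed reads was 10.97, with an exact 95% counting interval from 1.65 to 466. When every gene with at least 1 read was tested, its edgeR adjusted p was 0.0999, short of the threshold.

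Haptoglobin, the haemoglobin carrier coded by Hp, had 210 and 153 reads in wtPC12 and 217 and 159 in hrPC12. The normalized counts of 201 ± 61.3 and 172 ± 16.1 (SD, n = 2 each) overlapped between the clones. Its log2 FC of −0.22 (SE 0.34, edgeR adjusted p = 0.632) did not exceed the spread between replicates. Hp was the one member, tested or not, with libraries of the clones that overlapped. In 73.5% of all tested genes they did not overlap.

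Lcn2 codes for lipocalin 2, which binds bacterial iron carriers, and it went the other way. It had 36 and 28 reads in wtPC12 and 0 in both hrPC12 libraries, with normalized counts of 35.4 ± 9.22 (SD, n = 2) in wtPC12. With the floor of 3 reads taken over the 2 hrPC12 libraries together, it was at least 25.3-fold lower in hrPC12. The filter on reads in both clones left it out of the test. Among every gene with at least 1 read its edgeR adjusted p was 0.00142, and it was called lower, as were 5.31% of the 18416 genes tested in that way. The plot of counts by library shows these patterns side by side.

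**Figure D1:**
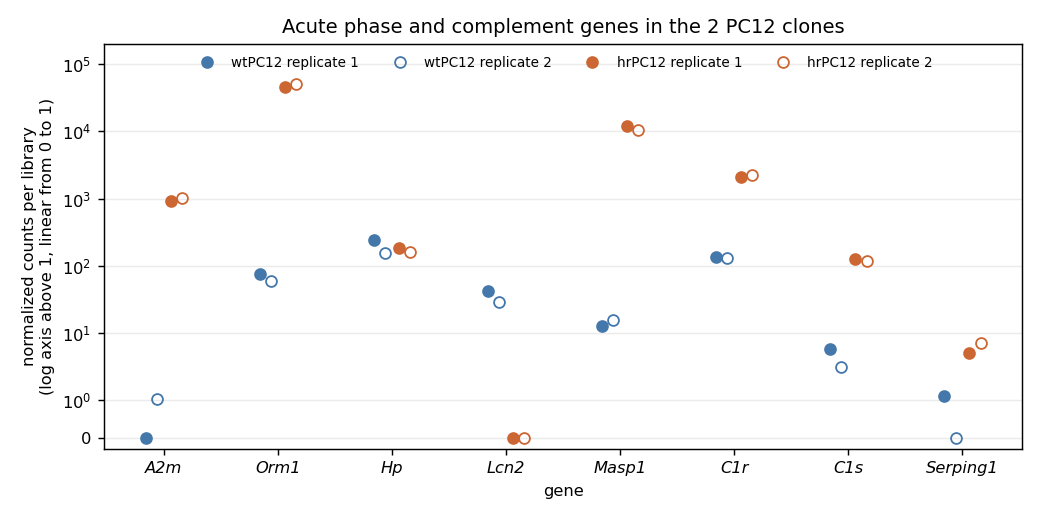
Normalized counts (log axis above 1, linear from 0 to 1) of the 8 members in each of the 4 libraries, wtPC12 in blue and hrPC12 in orange, replicate 1 filled and replicate 2 open. A2m, Orm1, Masp1, C1r, C1s and Serping1 lie higher in both hrPC12 libraries, Lcn2 is at 0 in hrPC12, and the Hp libraries overlap.

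Of the complement genes that are not members, a list of 50 was examined, of which 36 had a row in the files, 9 had no read and 17 were tested. Among the 17, 2 were called higher and 1 lower, where 4.84% and 5.46% of all tested genes were. Their median log2 FC was 0.31, beside 0.06 over all tested genes. The 3 called genes are all regulators. Those called higher, Csmd1 and Cd55, averaged 2.71 and 0.58 normalized counts in wtPC12, under the filter's mean of 5. They thus passed the filter only through hrPC12, where they are high. Csmd1, a large membrane protein with complement control domains, rose from 2.71 ± 0.54 to 1414 ± 177 normalized counts (SD, n = 2 each), with a log2 FC of 8.95 (SE 0.36, edgeR adjusted p = 0.000285). Cd55, or decay-accelerating factor, had 1 and 0 reads in wtPC12 and 128 and 90 in hrPC12, and the summed reads gave a ratio of 184 (exact 95% counting interval 32.7 to 7298). Susd4, a membrane protein that inhibits complement, fell from 3911 ± 20.6 to 30.9 ± 7.80 normalized counts (SD, n = 2 each), a log2 FC of −6.99 (SE 0.28, edgeR adjusted p = 0.000285).

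Clu, the gene of clusterin, had the highest counts of the list. It went from 6364 ± 1139 to 20320 ± 1696 normalized counts (SD, n = 2 each), and its log2 FC of 1.67 (edgeR adjusted p = 0.00537) stayed short of 2. C1qbp, a mitochondrial C1q-binding protein also high in counts, had a log2 FC of −0.35 (edgeR adjusted p = 0.299). The recognition subunits C1qa, C1qb and C1qc, which dock C1r and C1s on their targets, had no read in any of the 4 libraries. The lectin pathway recognition genes Mbl1 and Fcnb had none either. Colec10, another collectin, had 0 reads in wtPC12 and 43 and 35 in hrPC12, at least 21.9-fold higher over the 2 libraries together. Masp2, another protease gene of the lectin pathway, had a log2 FC of −0.22 (edgeR adjusted p = 0.595). Cfb, the protease of the alternative pathway, is named here because of its values. It had 121 ± 11.2 and 27.7 ± 6.29 normalized counts (SD, n = 2 each), with a log2 FC of −2.12 and an adjusted p of 0.0136 from edgeR's test, and DESeq2, and edgeR on RLE factors, called it lower. Without wtPC12 replicate 1 the number higher was 1, without hrPC12 replicate 1 the number lower was 2, and without wtPC12 replicate 2 both were 0.

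Of 50 further acute phase genes, 36 had a row, 6 had no read and 15 were tested. In hrPC12, 5 were called higher and 1 lower, where 4.84% and 5.46% of all tested genes were. Of those called higher, Serpina1 and Fetub averaged 1.61 and 0.58 normalized counts in wtPC12 and passed the filter only through hrPC12. The 15 had a median log2 FC of 0.81. The list mixes genes held to rise in the acute phase with 6 in the files entered as negative ones, Alb, Tf, Ttr, Rbp4, Fetub and Apoh, so its counts and median have no single direction to be read against. Cp, the copper carrier ceruloplasmin, rose from 358 ± 39.5 to 9429 ± 418 normalized counts (SD, n = 2 each), a log2 FC of 4.72 (SE 0.20, edgeR adjusted p = 0.000312). Cd14, a receptor for bacterial lipopolysaccharide, had 11.6 and 9.27 normalized counts in the wtPC12 libraries and 346 and 412 in those of hrPC12. Serpina1, or alpha-1-antitrypsin, had 1 and 2 reads in wtPC12 and 102 and 75 in hrPC12, a ratio of 49.8 (exact 95% counting interval 16.8 to 244). The fibrinogen chain gene Fgg rose with a log2 FC of 3.13 (edgeR adjusted p = 0.00868), while the chain Fgb had no read in wtPC12 and 2 in hrPC12.

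Fetub, the gene of the plasma protease inhibitor fetuin B and entered as a negative gene, was called higher as well. It had 1 and 0 reads in wtPC12 and 842 and 807 in hrPC12, a ratio of 1391 (exact 95% counting interval 249 to 54984). Hmox1, which codes for the haem-degrading enzyme heme oxygenase 1, was the gene called lower. It fell from 55586 ± 14140 to 5214 ± 476 normalized counts (SD, n = 2 each), a log2 FC of −3.41 (SE 0.28, edgeR adjusted p = 0.00141). The zinc transporter gene Slc39a14 had a log2 FC of −1.07 (edgeR adjusted p = 0.0155). Rbp4, the plasma carrier of retinol, had 239 and 156 reads in wtPC12 and 0 in hrPC12, at least 156-fold lower, and like Lcn2 could not pass the filter. The acute phase genes Crp, Apcs, Ptx3, Ltf, Serpina3m and Itih3 had no read in any library. Without wtPC12 replicate 1 the number higher was 3, and without wtPC12 replicate 2 none of the list was called in either direction.

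Signalling genes upstream of the acute phase response, a list of 44 ligands, receptors, kinases and factors, had 37 rows and 25 tested genes. Only Lifr and Il1rap were called higher and 0 were called lower by edgeR, where 4 had an unadjusted p under 0.05 in that direction and DESeq2 called 0. Of all 13726 tested genes, 3111 had such a p in that direction and DESeq2 called 911 lower. The 25 had a median log2 FC of 0.42, and over all tested genes 4.84% were called higher and 5.46% lower. Lifr, the receptor of leukemia inhibitory factor, had 0 and 1 reads in wtPC12 and 39 and 27 in hrPC12, a ratio of 55.7 (exact 95% counting interval 9.65 to 2232). Lifr averaged 0.52 normalized counts in wtPC12 and passed the filter only through hrPC12. Il1rap, a subunit of the IL-1 receptor, rose from 20.8 ± 11.3 to 292 ± 2.88 normalized counts (SD, n = 2 each), a log2 FC of 3.79 (SE 0.47, edgeR adjusted p = 0.00494). Its partner Il1r1 had 0 reads in wtPC12 and 3 and 1 in hrPC12. The cytokine genes Il6, Il1a and Tnf had at most 1 read in any library, and Osm, Il1b and the receptor gene Osmr had none. Other ligands of the IL-6 family were read in both clones. Lif had 14.8 ± 2.05 and 61.6 ± 9.85 normalized counts (SD, n = 2 each), and its log2 FC of 2.05 was not called (edgeR adjusted p = 0.0198). Il11 had 48.4 ± 4.34 and 9.03 ± 4.40 (SD, n = 2 each), with a log2 FC of −2.43 (edgeR adjusted p = 0.0231), and its receptor gene Il11ra1 one of −2.11 (edgeR adjusted p = 0.0188), neither called. Ctf1, the gene of cardiotrophin 1, averaged 306 and 241 normalized counts (edgeR adjusted p = 0.329).

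The genes with the highest counts of this list were Jak1, Nr3c1 and Ptpn11. The kinase gene Jak1 had 8790 ± 1157 and 19975 ± 112 normalized counts (SD, n = 2 each), with a log2 FC of 1.18 and an adjusted p of 0.0105 from edgeR's test. For the glucocorticoid receptor gene Nr3c1 the log2 FC was 1.19 (edgeR adjusted p = 0.0235), and for the phosphatase gene Ptpn11 it was 0.46 (edgeR adjusted p = 0.353). Further genes of the list, named for their role after their values were seen, were followed in the plot of signalling genes. Cebpb had 2874 ± 20.6 and 3011 ± 273 normalized counts (SD, n = 2 each) and a log2 FC of 0.07. Stat3 had 812 and 901 normalized counts in the wtPC12 libraries and 3978 and 2239 in those of hrPC12, with a log2 FC of 1.86 (edgeR adjusted p = 0.0130). Nfkb1 and Nfkb2 had log2 FC of 1.57 and 1.85 (edgeR adjusted p = 0.0299 and 0.0177). In hrPC12, replicate 1 was 1.78 times replicate 2 for Stat3, 1.81 times for Nfkb1 and 1.79 times for Nfkb2. Over a window of 7 genes in chromosome order the median of this ratio was 0.979 around Stat3, 1.78 around Nfkb1 and 1.37 around Nfkb2. Around the 6 tested members it ranged from 0.902 to 1.06. Leaving out hrPC12 replicate 2 raised the number called higher to 4, with Stat3 and Nfkb2 now called. Leaving out wtPC12 replicate 1 gave 1, and leaving out wtPC12 replicate 2 gave 0.

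**Figure D2:**
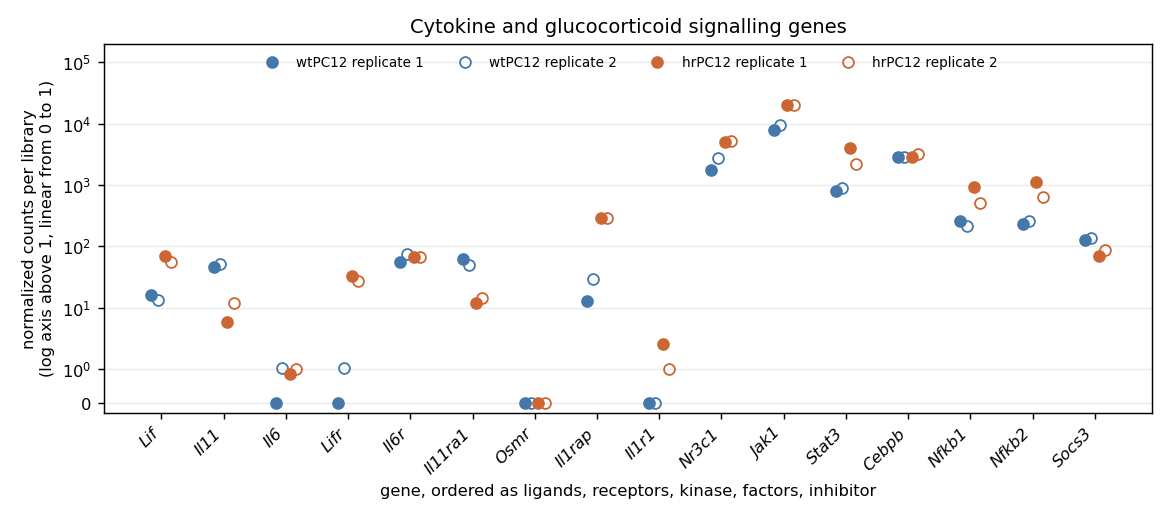
Normalized counts (log axis above 1, linear from 0 to 1) of 16 signalling genes in each library, wtPC12 in blue and hrPC12 in orange, replicate 1 filled and replicate 2 open. Lifr and Il1rap are higher in both hrPC12 libraries, Il6 and Osmr are at or near 0 throughout, and Cebpb is level between 2818 and 3204.

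The genes of proteins that take up the members' products were few. Slc22a17, a receptor of lipocalin 2, had 10339 ± 83.4 and 3139 ± 105 normalized counts (SD, n = 2 each), with a log2 FC of −1.72 (SE 0.16, edgeR adjusted p = 0.00212), short of the log2 FC threshold. Lrp1, a receptor of alpha-2-macroglobulin bound to proteases, had a log2 FC of 0.62 (edgeR adjusted p = 0.2), and its chaperone gene Lrpap1 one of 0.59. Over the alternatives these ranged from 0.20 to 1.17 and from 0.18 to 0.86. In hrPC12 replicate 1 Lrpap1 was 1.65 times its level in replicate 2, and the median over 7 genes around it was 1.79. Cd163, which takes up haptoglobin bound to haemoglobin, had no read. None of the 4 tested genes was called by edgeR or DESeq2, and 1, Slc22a17, had an unadjusted p under 0.05 by edgeR. Of all 13726 tested genes, 3111 had such a p with a negative log2 FC and 3246 with a positive one. EdgeR called 5.46% of them lower and 4.84% higher, and DESeq2 called 911 lower and 877 higher.

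**Figure D3:**
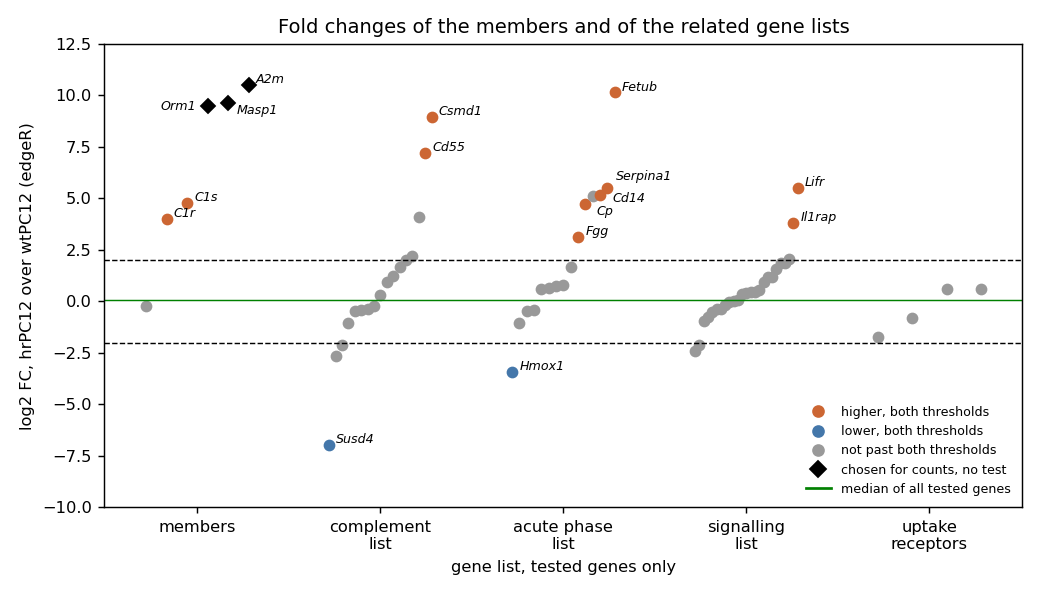
Fitted log2 FC (hrPC12 over wtPC12) of the tested members and of the tested genes of each list, ordered by value within a list, with the thresholds of 2 and −2 dashed and the median of all tested genes (0.06) as a green line. Called genes are coloured and named, and the diamonds are the 3 members chosen for their counts, which have no test.

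Several members are plasma proteins of the liver or of stromal and immune cells, so markers of these cells were read in the same libraries. Of 9 hepatocyte markers with a row, Serpina1 was the one with over 12 reads summed over a clone, and their summed normalized counts were 3.09 to 4.65 in wtPC12 and 90.1 to 98.2 in hrPC12. Albumin had 0 reads in 3 libraries and 3 in hrPC12 replicate 2. Among 11 leukocyte markers the sums were 52.5 to 55.8 and 455 to 524. Cd14, which was called higher (log2 FC 5.17, edgeR adjusted p = 0.000996), took most of the hrPC12 sums. Cd68 was the highest in wtPC12. Cd68 and Spi1 had log2 FC of 1.63 and 2.36 (edgeR adjusted p = 0.0283 and 0.0338) and were not called, and Ptprc, the gene of CD45, had 1 read in all. Of the 8 tested fibroblast and mesenchymal markers 5, among them Col3a1 with a log2 FC of 9.83, were called higher in hrPC12 and none lower. Of these 5, Col1a1, Col1a2 and Vim averaged 4.19, 2.91 and 2.77 normalized counts in wtPC12. They thus passed the filter only through hrPC12. The sums of the 9 with a row were 16319 to 18105 in wtPC12 and 95260 to 100019 in hrPC12. Dcn and Thy1, of the same list, had negative log2 FC of −3.10 and −0.99. Of 3 tested endothelial markers Vwf was called higher, and Emcn had no read. Of the 8 tested chromaffin markers 5 were called lower in hrPC12 and none higher. Ddc, Gata3 and Hand2 were not called, with log2 FC of 0.27, −0.03 and −0.85. Over all tested genes 4.84% were called higher and 5.46% lower. The part of other cell types in the members' counts was not tested.

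The position of the members was not used to choose them. In the RefSeq annotation (GRCr8, used for the order of genes only), C1rl, C1r and C1s follow each other. C1rl, a relative of C1r, had 13.4 ± 5.78 and 62.1 ± 1.97 normalized counts (SD, n = 2 each) and a log2 FC of 2.22, with an adjusted p of 0.0233 from edgeR's test. Clstn3, next to C1rl, was called lower in hrPC12, with a log2 FC of −2.60 (edgeR adjusted p = 0.0013). Lpcat3, next to C1s, had a log2 FC of 0.51 (edgeR adjusted p = 0.0783). Neither was called higher.

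The flanks of the members were looked at after their values were known. Of the 5 tested flanking genes of Masp1, Rtp4 and Adipoq were called higher. Of the 5 of Orm1, 3 were called higher, Rgs3, Akna and Tnfsf15, with log2 FC of 2.27, 2.84 and 7.60, and Col27a1 was called lower with one of −2.45. Of the 4 of A2m, Usp18 was called higher with a log2 FC of 4.97. Iqsec3, next to A2m, had a log2 FC of −5.06 and was not called (edgeR adjusted p = 0.0208). None of the tested flanking genes of Lcn2 (7), Hp (7) and Serping1 (8) was called higher, and 1, 0 and 1 were called lower. C1r and C1s each had 1 called higher, the other of the pair, and 1 lower, Clstn3, of 10 and 11 tested. Rtp4, Tnfsf15 and C1s averaged 1.61, 1.10 and 4.45 normalized counts in wtPC12, so they passed the filter only through hrPC12. Over all tested genes 4.84% were called higher and 5.46% lower. Around Masp1, reads near the floor in wtPC12 were frequent. Of the 14 protein-coding genes nearest to Masp1, 7 on each side, 11 had a row, and 7 of these had at most 3 reads summed over the wtPC12 libraries and more in hrPC12. Of all genes in the files 6.25% did. The 7 are Tprg1, Bcl6, Rtp2, Sst, Rtp4, St6gal1 and Kng1, the last of which has a near copy beside it. Bcl6, the gene of a transcriptional repressor, had 0 reads in wtPC12 and 79 and 44 in hrPC12. St6gal1, a sialyltransferase gene, had 0 against 73 and 96. Sst, which codes for somatostatin, had 0 against 20 and 19. Adipoq, the adiponectin gene, lies within the same stretch and had 20 and 16 reads in wtPC12 and 769 and 678 in hrPC12. Rfc4 and Eif4a2, which follow Adipoq, had an edgeR adjusted p of 0.372 and 0.715, and Rtp1 had no read. Around Orm1 and A2m, 1 of 7 and 1 of 9 flanking genes with a row were at this floor in wtPC12 only, and around Serping1 2 of 12. Around Lcn2, Hp, C1r and C1s there were none.

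**Figure D4:**
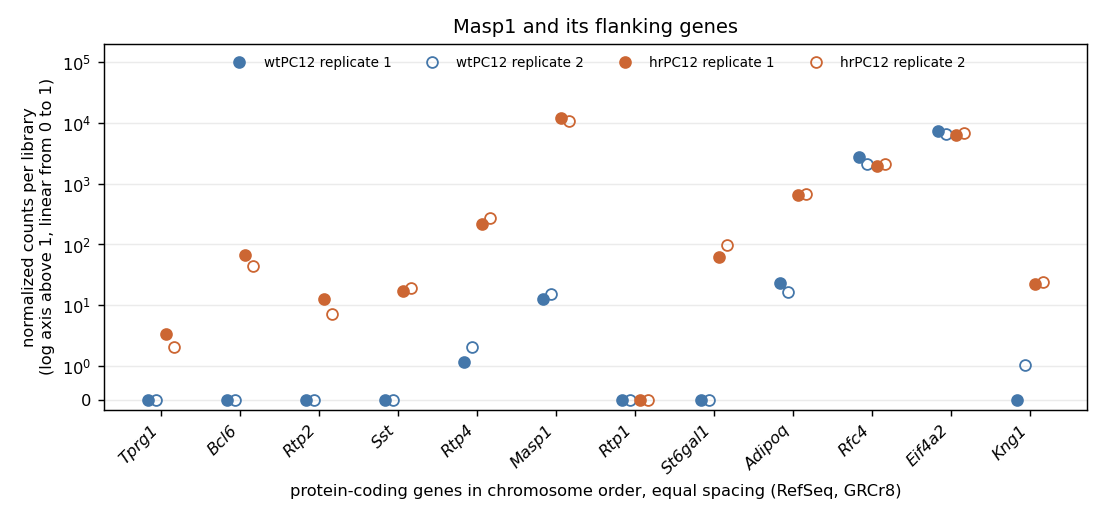
Normalized counts (log axis above 1, linear from 0 to 1) of Masp1 and its flanking protein-coding genes in chromosome order, at equal spacing, in each library, wtPC12 in blue and hrPC12 in orange. From Tprg1 to Adipoq every gene with a read is higher in both hrPC12 libraries, and Rfc4 and Eif4a2 are at similar counts in both clones.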

How the data were processed

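RNA of the wtPC12 and hrPC12 clones was sequenced on an Illumina instrument after a TruSeq RNA v2 preparation, which does not mark strand, so overlapping antisense genes are not separated. The authors deposited raw counts per gene on build RGSC3.4 (rn4). The submitters' processing notes name TopHat2 2.0.4, HTSeq 0.5.3 and DESeq 1.9.12. Reads outside genes (49.9% to 55.9% of reads accounted for), in more than 1 gene or without a unique position were left out. A table of the authors' own comparison (means, fold changes and p values) was not used.

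Counts were analysed in R 4.3.3 with edgeR 4.0.16: TMM factors, the filter on low genes (reads in each clone, mean of 5 or more) and the quasi-likelihood test (legacy option on) with Benjamini-Hochberg adjustment. The filter and the thresholds follow the study, which used DESeq. The common dispersion was 0.0745. A 2-sided exact permutation test of 2 libraries against 2 cannot give a p under 0.333. The members and lists were chosen with earlier results of these data known. Named genes are the members, Rest, the called genes of each list, the 3 highest in counts of each, the 3 nearest to A2m, and markers at 0. Others were named after their values were seen. Alternatives were DESeq2 1.42.0, RLE factors, unscaled library totals, filterByExpr, testing all genes with a read, glmTreat, the legacy option off, leaving out each library, and a threshold of 0.05 on adjusted p. Exact counting intervals on summed reads were added after the data were seen. Transcript lengths were not used here, so levels were not ranked between genes per length, and the distance to A2m and the order by counts are on counts uncorrected for length.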

Additional observations from a re-analysis of the deposited data

How the results depend on the processing

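C1r and C1s kept their direction in all alternatives and were called in all but one. Their log2 FC ranged from 3.91 to 4.08 (3.91 to 4.06 with a library left out) and from 4.38 to 5.23, and adjusted p rose to 0.0139 and 0.0222 (edgeR's quasi-likelihood test) without wtPC12 replicate 2. Leaving out 1 library leaves a lone library in its clone, which is then assumed to vary like the others. The log2 FC of Hp, not called, was between −0.50 and 0.10 with a library left out and positive (0.10) without wtPC12 replicate 1. A2m, with a log2 FC of 10.50, had 9.70 without wtPC12 replicate 1.

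Over all genes, 749 were lower and 665 higher. These became 353 and 321 with glmTreat, and the number higher became 1127 with every gene of at least 1 read and 1088 at an adjusted p under 0.05. With a library left out they ranged from 0 to 859 lower and 0 to 962 higher, the 0 being without wtPC12 replicate 2. Complement genes lower numbered 2 with RLE factors, library totals alone, every gene and DESeq2, and 3 at an adjusted p under 0.05, and those higher 6 with every gene and 5 at an adjusted p under 0.05. With a library left out they ranged from 0 to 2 and from 0 to 3. Acute phase genes lower numbered 2 with every gene and with filterByExpr and 0 with glmTreat, and those higher 8 with every gene and with filterByExpr. With a library left out they ranged from 0 to 1 and from 0 to 6. Signalling genes lower numbered 1 with every gene and 2 at an adjusted p under 0.05, and those higher 0 with glmTreat and 0 to 4 with a library left out. Without wtPC12 replicate 1, Cd55 and Fetub had no read in wtPC12, so the filter left them out of the test. Other causes of these differences were not tested. No paired analysis was possible because the titles of the libraries share fewer than 2 replicate labels between the clones. The replicate numbers used here follow the order of the samples and pair nothing. Genes with a few reads in a clone, such as A2m, C1s and Serping1, are limited by depth.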
